A study of Mus musculus with 2 samples.

Results

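The clustered protocadherin genes were examined for open chromatin in mouse cerebral cortex. Members were the protein-coding genes of the GENCODE M21 annotation whose symbol places them in the alpha, beta or gamma protocadherin cluster, which gave 57 of 21938 protein-coding genes on the autosomes and sex chromosomes. All 57 lie on the forward strand of chromosome 18, between 36930184 and 37841873 of the mm10 assembly. They comprised 12 alternate and 2 C-type genes of the alpha cluster, 22 genes of the beta cluster, and 12 A-type, 6 B-type and 3 C-type genes of the gamma cluster. The annotation gives the symbol Pcdha11 to 2 records, which are called the upstream and the downstream Pcdha11 record here. Pcdhgb8, a polymorphic pseudogene in that annotation, was not a member.

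Clustered protocadherins are cadherin-like adhesion proteins of the cell surface. Combinations of them give single neurons an identity of their own, by which branches of one neuron recognise and avoid each other. In the alpha and gamma clusters each gene is a variable first exon with its own promoter, spliced to constant exons shared by the whole cluster, whereas each beta gene encodes a protein without constant exons. Alternate genes are known to be chosen in a largely random way in each neuron, and C-type genes to be used more uniformly across neurons. CTCF, a zinc finger protein that anchors chromatin loops together with the cohesin ring, is known to bind at many of these promoters and at distant enhancers downstream of the alpha and gamma clusters.

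DNase-seq maps cuts that the enzyme DNase I makes in the chromatin of isolated nuclei, and its peaks mark accessible DNA. Right cerebral cortex was taken at 2 months of age from male mice of the B6CASTF1/J hybrid, whose parental strains are C57BL/6J and CAST/EiJ. The single group held 2 libraries, from animals numbered 5 (replicate 1) and 6 (replicate 2), with no treatment or second genotype, so nothing was compared between conditions and no p-value was computed. Both libraries carry the same donor record, so that they come from separate animals rests on the animal numbers.

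Replicate 1 had 91818 peaks in its smaller, strict set and 394531 footprints, the short protected stretches inside accessible DNA, against 75245 and 241645 in replicate 2. The height of a peak is the deposited signal, on a scale that the sources used here do not state, and over 63501 overlapping pairs of strict peaks it was a median 1.39 times as high in replicate 1. Heights are therefore given for each library with their percentile among all strict peaks of that library. All 6 of 6 pan-neuronal markers had a promoter peak in both libraries, as did 3 of 5 excitatory, 2 of 5 inhibitory, 2 of 4 astrocyte and 1 of 4 oligodendrocyte markers, and none of 4 microglial or 4 liver markers. Of 4 endothelial markers, 2 had a peak in replicate 1 and 0 in replicate 2. The tissue is a mixture of cells, so a site open in few cells and a site weakly open in many cannot be told apart.

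Few clustered protocadherin promoters had a strict peak. A strict peak lay within 1000 bp of a transcript start of 7 of 57 members (12.3%) in each library, against 63.4% of all protein-coding genes in replicate 1 and 59.3% in replicate 2. The mean was 7.0 ± 0 members (SD, n = 2), and 6 members (10.5%) had a peak in both libraries, against 58.7% of all protein-coding genes. The peaks were unevenly spread over the classes: 4 of 5 C-type genes had one in both libraries, but only 2 of the 52 alternate and beta genes. No alternate alpha gene and no B-type gamma gene had a strict peak in either library.

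In each library the 3 tallest promoter peaks of the family were at C-type genes. Pcdhgc3, the first C-type gene of the gamma cluster, had a height of 4.0 in replicate 1 and 2.85 in replicate 2, at percentiles 94.4 and 94.3. Its peak spanned the annotated start, at chr18:37806221-37806460 in replicate 1 and chr18:37806201-37806480 in replicate 2. This was the highest promoter peak of any member in both libraries. Its window held 1470 and 1071 listed bases, meaning bases that the authors list with a false discovery rate under 0.05 for the local density of cuts.

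Pcdhgc5, the last C-type gene, had heights of 1.92 and 2.19 at percentiles 80.1 and 90.1. Its peak ended 31 bp before the nearest start in replicate 1 and 73 bp before it in replicate 2, and 894 and 760 bases of its window were listed. It was one of 2 members, with Pcdhb14, whose peak was higher in replicate 2. The promoter of Pcdhgc5 also held the least CpG of the C-type genes, with an observed over expected ratio of 0.251, while that of Pcdhgc3 held the most of all members, at 0.820.

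Pcdhgc4 lies between them and was the only C-type gene without a strict peak. In the larger, broader peak set it had heights of 1.44 and 0.952. Replicate 1 listed 754 bases and 11 footprints in its window, with a lowest false discovery rate of 0.00067, and replicate 2 listed 183 bases and no footprint, with a lowest rate of 0.00399. None of the 183 bases lay between 150 bp before and 50 bp after the start, where replicate 1 listed all 201.

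The alpha C-type genes were open in both libraries. Pcdhac1 had heights of 2.58 and 1.49 at percentiles 87.1 and 80.1, over its start, with 1545 and 1104 listed bases. Pcdhac2 had heights of 1.73 and 1.15 at percentiles 76.9 and 69.8, also over its start, with 1143 and 1123 listed bases. Both thus exceeded the median of all protein-coding genes for listed bases, which was 897 in replicate 1 and 612.5 in replicate 2. Their heights stayed below the median of the promoter peaks of all protein-coding genes, 3.02 and 2.17, which covers genes with a peak only. Of the members only Pcdhgc3 passed that median in both libraries, and Pcdhgc5 passed it in replicate 2. With genes without a peak counted as 0, as for listed bases, the medians were 1.48 and 0.960. Both alpha C-type genes exceeded these.

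**Figure D1:**
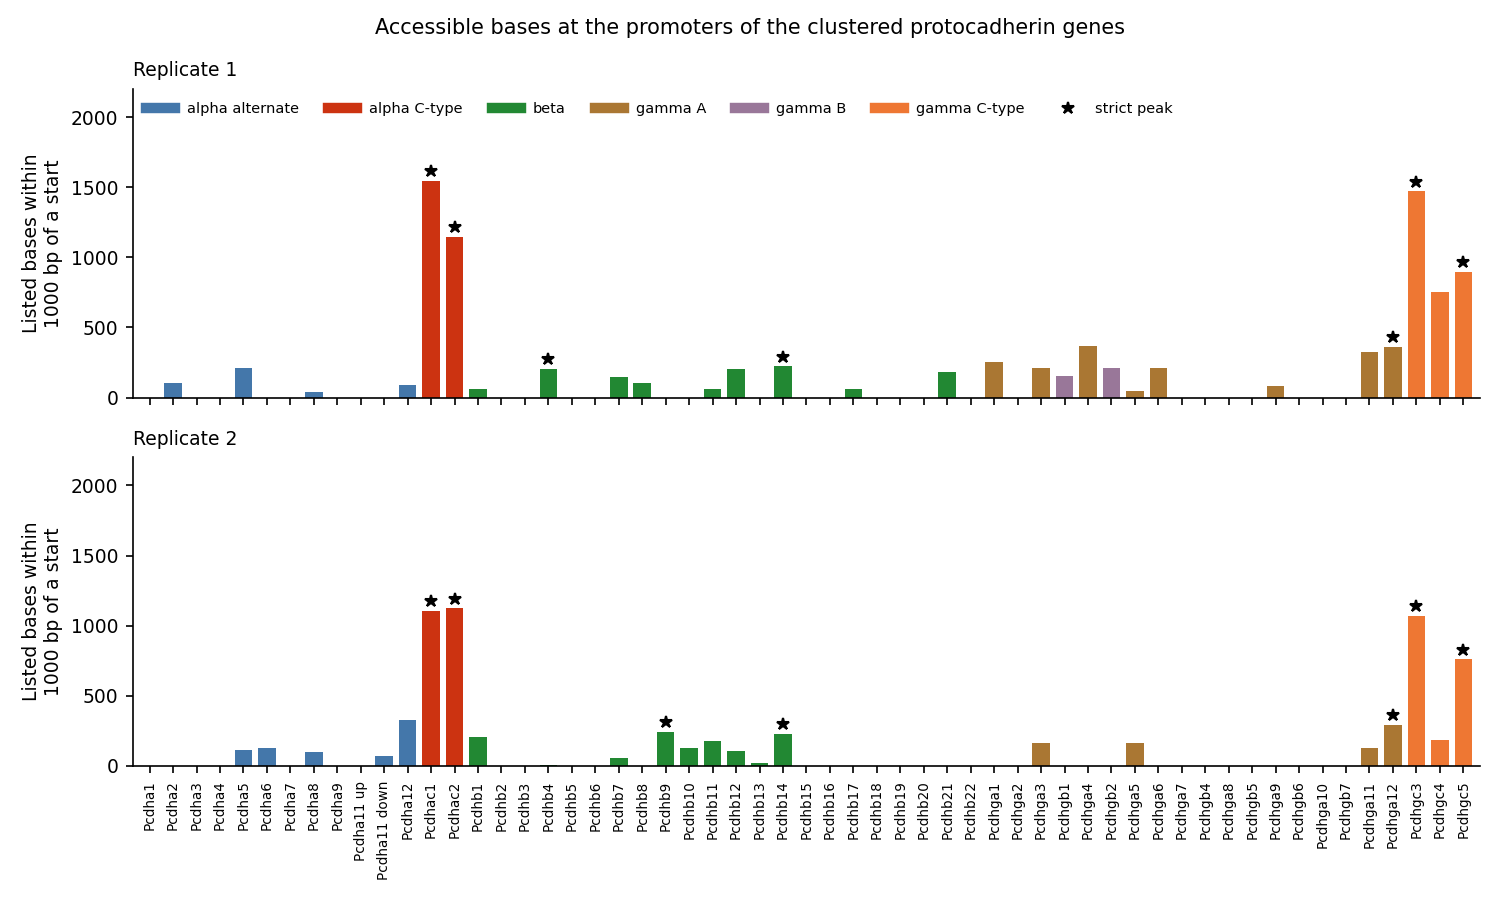
Bars give the number of listed bases within 1000 bp of a start for each of the 57 genes in genomic order, for replicate 1 (top) and replicate 2 (bottom), coloured by class; a star marks a strict peak. The C-type bars reach 1545 bases, whereas no alternate or beta gene passes 367.

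Only 2 genes outside the C-type class had a strict peak in both libraries. Pcdhga12, the last A-type gene, had heights of 1.34 and 1.15 at percentiles 67.9 and 69.8. That peak, at chr18:37765833-37766020 in replicate 1, lay inside the first exon, 60 and 59 bp past the nearest annotated start. A further strict peak in the same exon, with heights of 1.41 and 1.15, lay at the start of Gm26672, an RNA gene without a protein product on the reverse strand.

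Pcdhb14 had heights of 0.288 and 0.315, at percentiles 2.94 and 3.77, so its peak was among the lowest of either library. Its window held 222 and 226 listed bases. Of the other beta genes, Pcdhb4 had a peak of 0.501 in replicate 1, where 207 bases were listed, and only 5 listed bases in replicate 2. Conversely, Pcdhb9 had a peak of 0.292 in replicate 2, where 244 bases were listed, and no listed base in replicate 1. Both of these peaks were low in their library, at percentiles 16.4 and 2.53.

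Below the strict threshold more promoters showed some signal. In the broader set 26 members (45.6%) had a promoter peak in replicate 1 and 21 (36.8%) in replicate 2, against 68.2% and 65.0% of all protein-coding genes. At least 1 listed base lay in the windows of 28 members (49.1%) and 23 members (40.4%), against 69.2% and 66.1% of all protein-coding genes. The mean was 25.5 ± 3.54 members with a listed base (SD, n = 2). The median member had 0 listed bases in each library.

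These weak signals were often seen in 1 library only. Of 33 members with a listed base in either library, 18 (54.5%) had one in both, against 93.2% of the 15361 protein-coding genes listed in either library. Leaving aside the C-type genes, 13 of 28 were shared (46.4%). A low signal near the threshold and a difference between the animals were not told apart.

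Leaving aside C-type genes, 24 members had listed bases but no strict peak, and 10 of them were listed in both libraries. Pcdhga11 led with 326 and 127 listed bases in replicates 1 and 2 and a broad peak of 0.726 and 0.584. Pcdha12, the last of the alternate alpha genes, had 87 and 329 listed bases, and Pcdha5, also an alternate alpha gene, had 214 and 114. Of the A-type genes Pcdhga3 had 209 and 162, while Pcdhga4 with 367 and Pcdhga1 with 257 had none in replicate 2. In the beta cluster Pcdhb12 had 202 and 105 and Pcdhb1, its first gene, 63 and 204.

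The remaining 16 of those 24 held at most 211 listed bases in replicate 1 and 177 in replicate 2. They were Pcdha2, Pcdha6, Pcdha8, the downstream Pcdha11 record, Pcdhb7, Pcdhb8, Pcdhb10, Pcdhb11, Pcdhb13, Pcdhb17, Pcdhb21, Pcdhgb1, Pcdhgb2, Pcdhga5, Pcdhga6 and Pcdhga9. Only 4 of these 16 were listed in both libraries, 8 in replicate 1 only and 4 in replicate 2 only.

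Over all protein-coding genes, 6577 of 21938 had no listed base in either library. The same held for the other 24 of the 57 members. Among them were 6 of 12 alternate alpha genes (Pcdha1, Pcdha3, Pcdha4, Pcdha7, Pcdha9 and the upstream Pcdha11 record) and 10 of 22 beta genes (Pcdhb2, Pcdhb3, Pcdhb5, Pcdhb6, Pcdhb15, Pcdhb16, Pcdhb18, Pcdhb19, Pcdhb20 and Pcdhb22). The gamma cluster added 4 of 12 A-type genes (Pcdhga2, Pcdhga7, Pcdhga8 and Pcdhga10) and 4 of 6 B-type genes (Pcdhgb4, Pcdhgb5, Pcdhgb6 and Pcdhgb7). Every class other than the C-type classes thus held genes with no listed base.

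The extent of the listed stretch differed between classes. Bases are listed only under the false discovery threshold, and whether the stretches differed in shape at equal signal was not tested. The beta values below rest on the 9 of 22 genes with a listed base in each library. Around C-type starts all bases between 200 and 300 bp past the start were listed in both libraries, and the listed stretch ran on well into the first exon. In beta genes the most densely listed bin was 50 to 100 bp before the start, where 33.2% of bases were listed in replicate 1 and 28.9% in replicate 2. Between 150 bp before and 50 bp after the start, a range chosen after the values were seen, lay 87.7% and 78.9% of all listed bases of the beta windows. The same range held 32.2% and 49.4% of the listed bases of the alternate alpha and gamma genes, 17.3% and 18.3% of those of C-type genes, and 15.7% and 17.8% over all protein-coding genes. It spans 10.0% of the window.

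**Figure D2:**
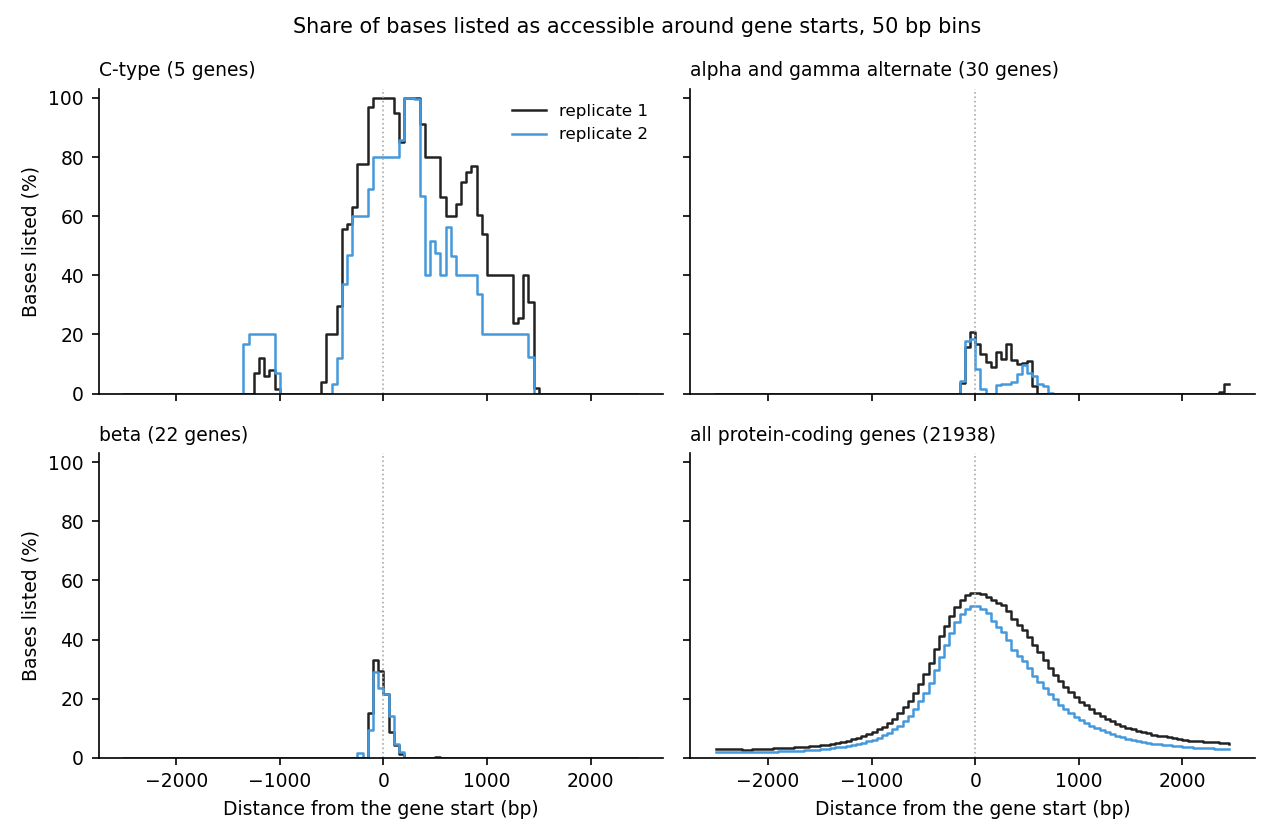
The vertical axis gives the percentage of bases listed in bins of 50 bp, and the horizontal axis the distance from the start of the gene record in bp, for replicates 1 and 2. C-type genes reach 100%, the beta genes form a narrow summit of 33.2% and 28.9% just before the start, and the alternate alpha and gamma genes reach 20.8% and 18.5%.

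In the alternate genes a second, lower stretch of listed bases lay inside the first exon. Pcdha5 had listed bases in the exon alone, 214 and 114 of them, and none between 150 bp before and 50 bp after its start. Pcdha8 likewise had 38 and 102 listed bases, all in the first exon and none in that range. Pcdha12 had both kinds in replicate 2, with 222 of its 329 listed bases in the exon and 107 in the range at the start, and 87 in the exon alone in replicate 1. Of the A-type genes without a listed base in that range, Pcdhga12 had exon bases listed in both libraries. Pcdhga6 and Pcdhga9 had them in replicate 1 only.

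Footprints were most numerous at the C-type genes. At least 1 lay in the windows of 22 members (38.6%) in replicate 1 and 12 (21.1%) in replicate 2, against 66.5% and 62.3% of all protein-coding genes. In all 79 and 24 footprints were counted, a mean of 51.5 ± 38.9 (SD, n = 2), so the libraries differed more than in the number of peaks. The 5 C-type genes held 47 of the 79 and 15 of the 24. They also held the most listed bases within 1000 bp of the start of the gene record, 5754 in replicate 1 and 4241 in replicate 2. The alternate alpha and gamma genes held 2665 and 1489, and the beta genes 1251 and 1167. Whether footprints differed between classes for the same amount of accessible DNA was not tested. Pcdhac2 alone had 15 footprints in replicate 1 but 2 in replicate 2, while Pcdhgc3 had 8 and 5 and Pcdhgc5 had 9 and 6.

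The promoter sequence was searched for the CTCF consensus, a motif of 14 positions, on both strands of the mm10 reference. With up to 2 mismatches 30 members (52.6%) had a match within 1000 bp of a start, against 69.2% of all protein-coding genes. With up to 1 mismatch 10 members (17.5%) had a match, against 16.4% of all protein-coding genes. The first share was below the background and the second near it, but the matches were unevenly placed. Of the 10 members with up to 1 mismatch, 9 were alternate alpha genes and the other was Pcdhgb7.

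In the alternate alpha genes the matches were alike in place and strand. Allowing 2 mismatches, 11 of the 12 genes had 1 match each after the start, all on the strand of the gene and 456 to 602 bp past the start of the gene record (median 560 bp), within the first exon. Pcdha2 was the gene without one. The consensus was met exactly in 6 of the 12 genes, against 2.16% of all protein-coding promoters. Over all protein-coding promoters 49.0% of matches with up to 2 mismatches and 49.9% with up to 1 were on the strand of the gene. The alternate alpha exons are close relatives in sequence, so the 11 matches are not independent of each other.

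**Figure D3:**
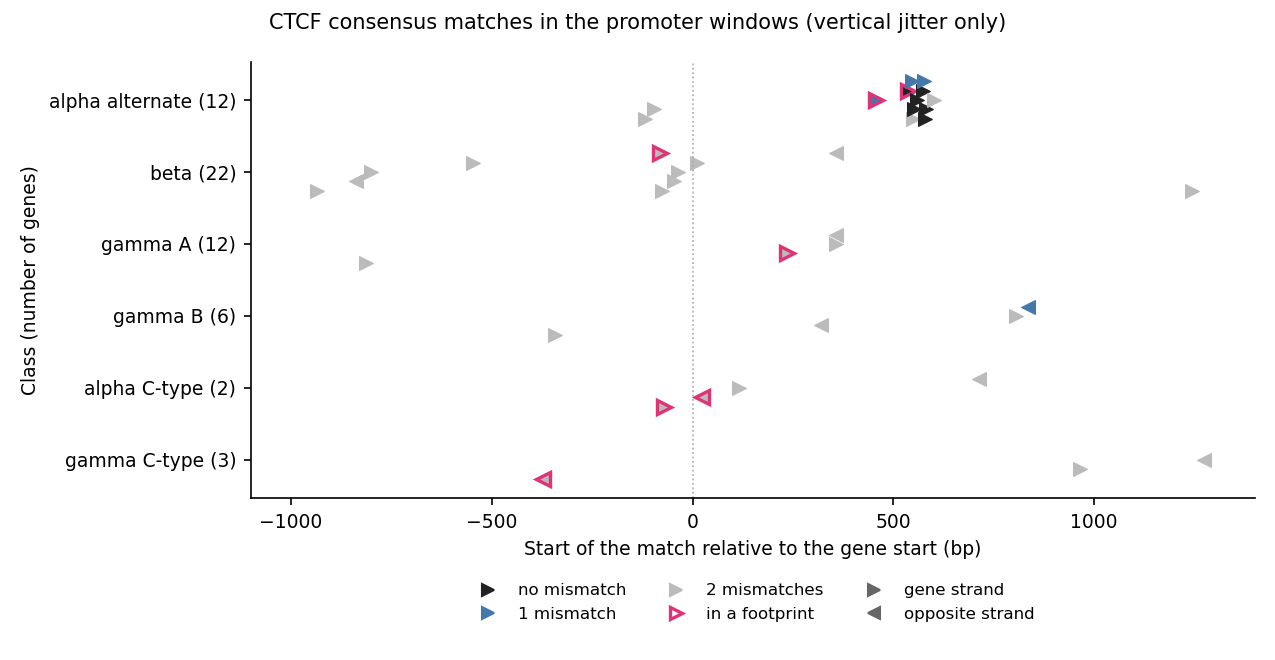
Each arrowhead is 1 match to the CTCF consensus with up to 2 mismatches, placed by the distance of its start from the gene start in bp and by class, pointing right on the strand of the gene and left on the opposite strand. Matches of 11 alternate alpha genes gather 456 to 602 bp past the start, and a pink edge marks a footprint in either library.

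Most of these exonic matches held no listed base in either library, which does not show that they were closed. Listed bases covered them at Pcdha5 and Pcdha12 in replicate 1 and at Pcdha5, Pcdha8 and Pcdha12 in replicate 2. The match of Pcdha12 coincided with a footprint in both libraries, and that of Pcdha5 with footprints in replicate 1 only. Matches close to the start had 2 mismatches and were few. Between 150 bp before and 50 bp after the start, 9 of all 57 members had a match, 8 of them on the strand of the gene. The share of all protein-coding promoters with a match in this range was not counted, so no excess is read from it. The 9 members were Pcdha3, Pcdha9, Pcdhac1, Pcdhac2, Pcdhb2, Pcdhb10, Pcdhb11, Pcdhb12 and Pcdhb18. At Pcdhac1 such a match, starting 72 bp before the start, lay in a footprint in both libraries, and in the beta cluster those of Pcdhb11 and Pcdhb12 were listed in both.

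Sequence composition and repeated sequence varied with class. Members had a median GC content of 42.9%, against 51.2% for all protein-coding promoters. Their median CpG ratio of 0.483 was close to the 0.474 of all genes. By class the median CpG ratio was 0.641 in alternate alpha genes, 0.334 in beta genes, 0.495 in A-type and 0.530 in B-type gamma genes and 0.566 in C-type genes. The alternate alpha genes, which had no strict peak, thus had a higher median CpG ratio than the C-type genes. For GC content the order was reversed, with medians of 41.7% in alternate alpha and 51.4% in C-type genes. The GC medians were 42.1% in beta, 45.5% in A-type and 44.5% in B-type genes. Whether composition has a part in the number of peaks was not tested.

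Clustered protocadherin exons resemble each other in sequence. The share of 31-base words found once in the mm10 reference had a median of 92.9% over the members (range 72.7% to 100%), against 98.5% over all protein-coding promoters. It was 88.9% in alternate alpha, 88.6% in B-type, 98.0% in A-type, 99.5% in beta and 100% in C-type genes. The lowest C-type value was 99.0%. All 5 C-type genes, 4 of them with a strict peak in both libraries, are thus among the 28 members that follow. Among the 28 members with at least 95% unique words, 6 had a strict peak in each library (21.4%), against 73.6% and 68.4% of all protein-coding genes in that range. Among the 25 members with 80% to 95% unique words, 1 had a peak in replicate 1 and 0 in replicate 2, against 59.3% and 56.6%. Among the 4 members with 50% to 80% unique words, 0 had a peak in replicate 1 and 1 in replicate 2, against 26.2% and 25.0%. The part of repeated sequence in the number of peaks was not tested. The sources used here do not say how reads with several placements were treated.

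Peaks away from the starts were examined over the clusters and 200 kb on each side. This window held 66 strict peaks in replicate 1 and 56 in replicate 2, a mean of 61.0 ± 7.07 (SD, n = 2). Of these, 46 (69.7%) and 45 (80.4%) overlapped a strict peak of the other library, compared with 66.2% and 80.8% of all strict peaks in the genome. The stretch from Pcdha1 to the last gamma exon held 24 and 22 of them, and there 14 of 24 (58.3%) and 14 of 22 (63.6%) were shared.

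**Figure D4:**
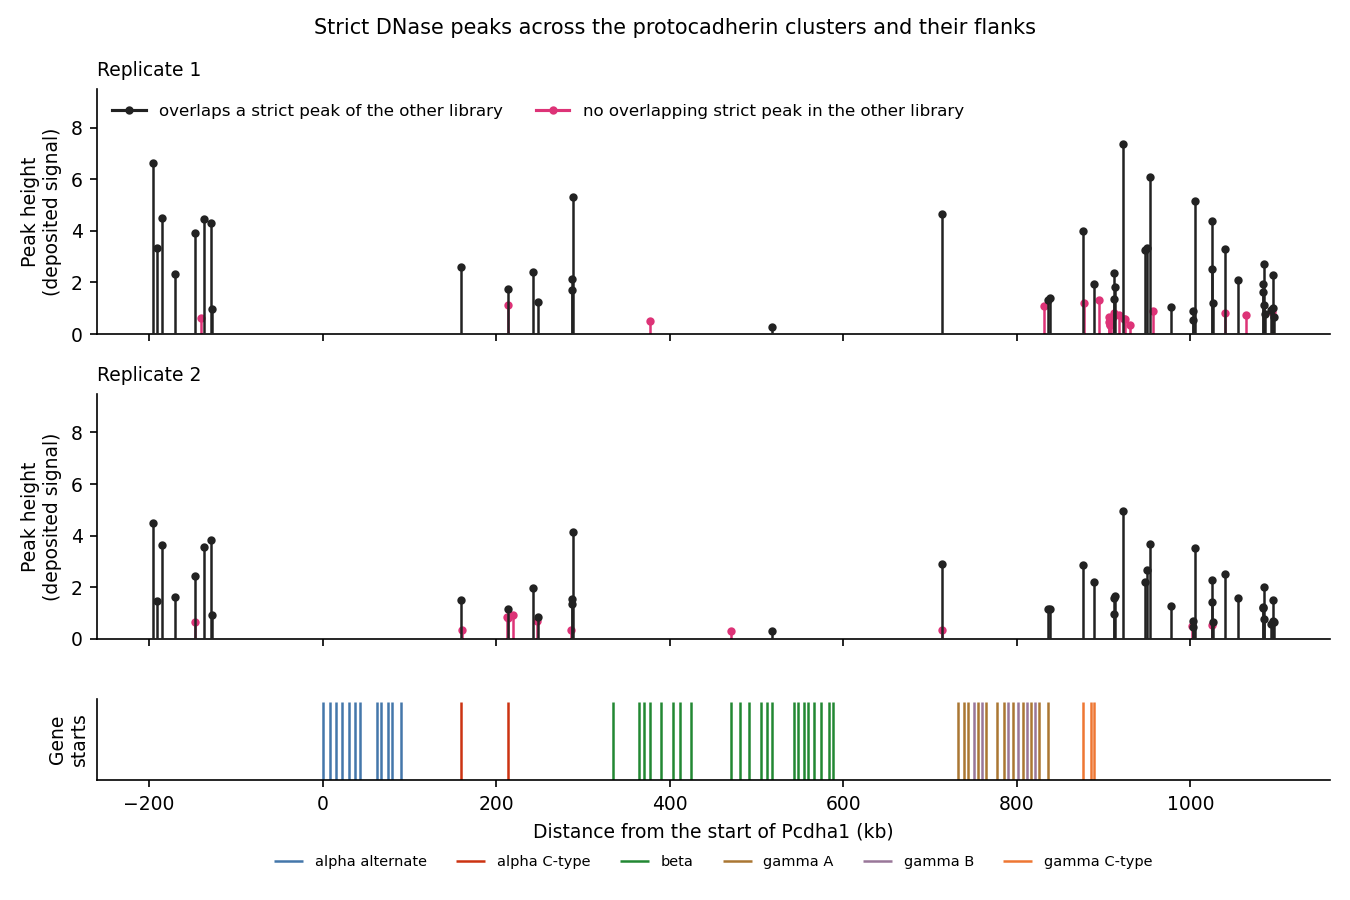
Vertical lines give the height (deposited signal) of each strict peak against its distance from the start of Pcdha1 in kb, in replicate 1 (top) and replicate 2 (middle), with the starts of the 57 genes below. The alternate alpha genes have no peak in either library, and tall peaks stand between the alpha and beta clusters and downstream of the gamma cluster, up to 7.38 and 4.96.

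Long stretches of the clusters had almost no peak. The 160 kb of the alternate alpha genes held 0 strict peaks in both libraries, with 2.75 listed bases per kb in replicate 1 and 4.66 in replicate 2. The 261 kb of the beta cluster held 2 and 2 strict peaks, and 4.80 and 4.48 listed bases per kb. The 145 kb of A-type and B-type gamma genes held 3 and 2 peaks and 21.8 and 8.85 listed bases per kb. By contrast, the 98.6 kb from Pcdhac1 to the last alpha exon held 5 and 9 peaks and 51.7 and 52.7 listed bases per kb.

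The tallest peaks within the clusters lay outside all of the member promoters. Between the last alpha exon and Pcdhb1 stood a peak of 5.33 in replicate 1 and 4.14 in replicate 2, at percentiles 97.6 and 98.3. It lay at chr18:37218241-37218480, 30.6 kb past the last alpha exon and 46.5 kb before Pcdhb1. Beside it were shared peaks of 2.15 and 1.53 at chr18:37217361-37217560 and of 1.71 and 1.34 at chr18:37217861-37218120, the latter named after its values were seen. All of them fall within an intron of Gm42416, Gm37013 and Gm37388, coding records that read through the clusters.

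A known enhancer of the alpha cluster, HS5-1, lies downstream of its last exon and carries CTCF sites, but its coordinates were not among the sources used here and the peaks were not matched to it. Between the alpha and beta clusters the reference held 2 CTCF consensus matches with up to 1 mismatch on the reverse strand and 1 on the forward strand. Both reverse matches lay in strict peaks and in footprints in each library, in the peaks at 37218241 and 37217361, and the forward match lay in none. These matches are few. The share of all such matches in the genome that lie in strict peaks was not counted, so no excess or strand difference is read from them. The reverse strand is opposite to that of the exonic matches of the alternate alpha genes.

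Near the end of the alpha cluster, further shared peaks lay at starts of RNA genes without a protein product on the reverse strand. One of 2.40 and 1.96 lay within 1000 bp of the start of Gm38097, and one of 1.26 and 0.837 at the start of Gm10544. Between the beta and gamma clusters the tallest strict peak was at Taf7, a subunit gene of the general transcription factor TFIID, with heights of 4.64 and 2.90.

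Downstream of the gamma cluster, peaks were dense. The 200 kb there held 33 strict peaks in replicate 1 and 25 in replicate 2, against 9 and 9 in the 199 kb upstream of Pcdha1. Their median height was lower than upstream, at 1.13 and 1.42 against 3.92 and 2.42. The tallest shared distal peak of the whole window, meaning over 1000 bp from any transcript start, lay at chr18:37852161-37852400. That is in an intron of Diaph1, a formin gene that acts on the actin cytoskeleton, 10.3 kb past the last gamma exon. Its centre in replicate 1 was only 1126 bp from an annotated transcript start of Diaph1. The peak had heights of 7.38 and 4.96. Also in introns of Diaph1 lay peaks of 6.08 and 3.66 at chr18:37883561-37883780, of 3.34 and 2.66 at chr18:37880161-37880380, and of 3.24 and 2.20 at chr18:37877221-37877620, between 35.3 and 41.7 kb past the last gamma exon.

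A shared peak of 2.37 and 1.59 lay only 0.168 kb past the last gamma exon, in intergenic DNA. Farther downstream lay peaks of 2.71 and 2.01 at chr18:38014761-38015160 and of 2.29 and 1.52 at chr18:38024981-38025180, the latter in an exon of the noncoding record AC121886.1. The remaining peak of the 10 tallest was upstream of the clusters, at chr18:36739901-36740040, with 3.34 and 1.47. Among the 7 reverse-strand CTCF matches with up to 1 mismatch in the downstream flank, 4 lay in strict peaks in replicate 1 and 3 in replicate 2, and of 3 forward-strand matches 2 did so in each. Here too the share over the genome was not counted.

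The libraries differed at the end of the gamma cluster. Replicate 1 had 10 strict peaks from Pcdhgc3 to the last gamma exon and replicate 2 had 3, all of which were shared. Of the peaks of replicate 1 alone, 5 lay at chr18:37835681-37841340 and held no listed base of replicate 2. Over that stretch replicate 1 listed 1927 bases and replicate 2 listed 0. These 5 peaks were low, with heights of 0.344 to 0.663 at percentiles 5.43 to 30.7, and they were named after their values were seen.

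The protein-coding neighbours in the same window were mostly open. Of 18 other coding genes, 13 had a promoter peak in both libraries, with heights of 2.11 to 6.63 (replicate 1) and 1.57 to 4.50 (replicate 2). By the mean of both libraries the tallest were those of Tmco6 (6.63 and 4.50) and Diaph1 (5.16 and 3.51), the peak that Ndufa2 and Ik share (4.50 and 3.64) and that of Zmat2 (4.44 and 3.56). In replicate 2 alone Diaph1 came after the other 4. The 5 without a peak in either library were Dnd1, Slc25a2 and the read-through records Gm42416, Gm37013 and Gm37388.

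Protocadherins and related large cadherins outside the clusters, which are adhesion proteins with a promoter of their own, were set beside the members. Of 20 such genes, 17 had a strict promoter peak in replicate 1 and 14 in replicate 2, with median heights of 2.47 and 1.77. The tallest were Pcdh10 (6.63 and 4.89), Pcdh9 (5.98 and 4.19) and Pcdh17 (5.04 and 3.69), each higher than any clustered member. Pcdh12, Fat2 and Dchs1 had no peak in either library. These shares, unlike the 7 of 57 of the clustered genes, were not below the share of all protein-coding genes.

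Genes for chromatin regulators known or thought to act on the clusters include those of CTCF, cohesin subunits and DNA methyltransferases. Of 18 such genes, 17 had a promoter peak in both libraries, against 58.7% of all protein-coding genes. Smc3, a core subunit of cohesin, had heights of 7.43 and 4.50, and Stag1, another cohesin subunit, 7.08 and 3.92. Wapl, which releases cohesin from DNA, had 5.94 and 4.49. Ctcf itself, which the naming rule did not select, had 2.60 and 1.81. Dnmt3a, a methyltransferase that sets new DNA methylation, had no strict promoter peak in either library, with 577 and 24 listed bases.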

How the data were processed

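DNase-seq libraries of 1 group (right cerebral cortex, 2 libraries) were used as deposited. Per the deposited descriptions, peaks, false discovery rates and footprints of each library came from its own filtered alignments to mm10, not from pooled samples. Aligner, callers, their versions and settings were not given in the sources used here. Peak height is a signal deposited by the authors, with unstated scaling. For single bases the authors deposited a false discovery rate, a q-value, which is present only under 0.05. Deposited footprints carry the constant 0.01, read as a p-value threshold of the authors, and no score of their own. All strict peaks of the cluster window held a base under 0.001. With no depth stated, how precise a single value is remains unknown.

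Genes and starts came from GENCODE M21, leaving out mitochondrial genes. The 21 chromosome names and lengths matched GRCm38. A member had a promoter peak if a strict peak overlapped the 1000 bp on either side of any of its transcript starts. The height is that of the tallest such peak. Peak sets overlapped with at least 1 bp in common. GC content, the CpG ratio and unique 31-base words (every 10th base) were taken within 1000 bp of the 5′ end of each gene record. Peak assignment and overlap recovered all 200 planted promoter peaks among 21938 genes and all 500 planted overlaps among 2000 simulated peaks. Motif matching and the counting of 31-base words were also tested on simulated data. Other steps were not.

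The text names all C-type genes, all genes with a strict peak in at least 1 library, the 8 others with the most listed bases, the 10 tallest shared distal peaks, the tallest neighbours and comparison genes, and every remaining member without values. Members, lists and tests were chosen with earlier results of these data known. Python 3.11.15, pandas 2.3.3, numpy 2.4.6 and bedtools 2.31.1 were used. Alternatives covered the window, the starts, the peak set, the overlap, the flank, the mismatches and each library left out. Sequence of the members is not printed here.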

Additional observations from a re-analysis of the deposited data

How the results depend on the processing

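The count of members with a strict promoter peak was 7 in each library and with windows of 500 and 2500 bp or the 5′ end of the gene record alone, and 5 with the taller 50% of strict peaks. The same 6 members had a peak in both libraries under each of these windows and starts, and 5 of them with the taller peaks. The broader set gave 23.5 members, with a median height of 0.343 against 1.44. Leaving out replicate 1 or 2 gave median heights of 1.15 to 1.73, 56 to 66 peaks in the window, shares of shared peaks of 69.7% to 80.4%, and 24 to 79 footprints at member promoters, so the footprint count rests on the library used. The window held 100 peaks in the broader set and 23 without the flanks. The share of shared peaks was 64.4% with 50% of each peak in common, 83.0% against the broader set and 61.0% without the flanks. Inside strict peaks there were 23 footprints. The CTCF count fell from 30 members to 10 with up to 1 mismatch, 18 within 500 bp and 1.5 inside strict peaks. Of 31 alternatives 18 kept counts within 1.5 times and other values within 1 SD between libraries, and 13 did not. The 18 include the median height and the share of shared peaks with 1 library left out. Those could not fail, as a single library always lies within 1 SD of the mean of 2. Why the 13 moved was not tested, except that fewer peaks, bases or mismatches were counted by construction. No paired analysis was possible because there is only 1 group. With no depth stated, a promoter without a peak was not detectably open, which does not show that it was closed.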
